A study of Mus musculus with 153 samples.

Results

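The genes described here are transcripts that T lymphocytes and their relatives carry, read in bulk tail skin: the CD3 chains Cd3d, Cd3e and Cd3g, the kinase Lck, the phosphatase Ptprc (CD45), the surface proteins Cd2 and Thy1, and the cytokine receptor chains Il7r and Il2rb. The members were chosen by name, with earlier results of these data known. Of these 9 genes, 8 were measured by a probe set annotated with that symbol alone, 1 probe set each, out of 18810 genes named the same way. Lck was not analysed here. The mice were the offspring of a backcross between Mus spretus and the FVB/N strain. Spretus males were mated to FVB/N females without a working Hras gene, and the F1 daughters to FVB/N males with the Hras genotype -/- or -/+, so each mouse carries its own mix of spretus and FVB/N alleles. Tail skin was taken at 8 weeks of age, untreated, and snap frozen, and each mouse has 1 Affymetrix array.

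Of 153 arrays, the 2 labelled as outliers were left out. The rest come from 37 mice labelled HET for Hras (19 males and 18 females) and from WT mice (62 males and 52 females). By the plate label, 56 mice were on plate 3, 46 on plate 2 and 49 on plate 1. The values are deposited log2 levels per probe set, so a difference of 1 is a ratio of 2. Array medians ran from 4.67 to 4.89 and lower quartiles from 3.02 to 3.20. Keratinocyte markers were high throughout, with a mean level of 10 genes from 10.28 to 10.75 in HET mice and from 10.32 to 10.77 in WT mice. The number of mice limits the precision, and the Hras transcript, which would check the genotype labels, is not reported here.

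T cells recognise antigen through the T cell receptor, whose variable chains are held at the surface and coupled to signalling by the CD3 gamma, delta and epsilon chains. Lck, once freed by CD45 from an inhibitory phosphate, phosphorylates those chains. Mouse epidermis is known for its resident dendritic epidermal T cells, which carry a gamma-delta receptor and sit among the keratinocytes, while the dermis holds further gamma-delta and alpha-beta T cells. IL-7 and IL-15, read through receptors that contain IL7R and IL2RB, keep such lymphocytes alive. Several of these genes are also expressed outside the T lineage: CD45 on nearly every white blood cell, THY1 on fibroblasts and neurons, IL7R on innate lymphoid cells and IL2RB on NK cells. In bulk skin, fewer cells of a type and less RNA per cell cannot be told apart.

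The CD3 genes are neighbours. In RefSeq's gene order for mouse assembly GRCm38.p6, Cd3g, Cd3d and Cd3e are 3 consecutive measured genes of chromosome 9, and Thy1 lies 32 measured genes before Cd3g on the same chromosome. Cd3g and Cd3d are read in opposite directions from starts 1355 bases apart, and the start of Cd3e lies 27825 bases beyond that of Cd3d. Their promoters are shown because Cd3e and Cd3g varied together over the mice. The Cd3d values did not follow them, but its probe set lay above its array's lower quartile in only 1 mouse. At so low a signal, a missing correlation cannot show that Cd3d is regulated differently. Whether the motifs bear on the correlations was not tested. Each line gives the 250 bases before and 50 after the RefSeq start, 5′ to 3′ on the gene's own strand, and capitals mark E-boxes, the motif CANNTG (N is any base), which reads the same on both strands. The Cd3e window is chr9:45009562-45009861 on the minus strand, the Cd3g window chr9:44980382-44980681 on the minus strand and the Cd3d window chr9:44981536-44981835 on the plus strand.
Cd3e: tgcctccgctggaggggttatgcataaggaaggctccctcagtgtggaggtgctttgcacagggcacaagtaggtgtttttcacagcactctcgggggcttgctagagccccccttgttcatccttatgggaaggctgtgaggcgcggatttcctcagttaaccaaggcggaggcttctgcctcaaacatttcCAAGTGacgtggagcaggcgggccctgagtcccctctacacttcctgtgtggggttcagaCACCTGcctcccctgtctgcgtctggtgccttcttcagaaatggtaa
Cd3g: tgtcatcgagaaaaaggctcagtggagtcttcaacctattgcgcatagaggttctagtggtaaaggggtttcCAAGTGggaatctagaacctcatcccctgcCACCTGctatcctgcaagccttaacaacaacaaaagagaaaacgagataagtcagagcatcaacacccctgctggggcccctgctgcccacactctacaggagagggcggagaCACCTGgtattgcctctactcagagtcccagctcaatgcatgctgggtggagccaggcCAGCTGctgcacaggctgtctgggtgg
Cd3d: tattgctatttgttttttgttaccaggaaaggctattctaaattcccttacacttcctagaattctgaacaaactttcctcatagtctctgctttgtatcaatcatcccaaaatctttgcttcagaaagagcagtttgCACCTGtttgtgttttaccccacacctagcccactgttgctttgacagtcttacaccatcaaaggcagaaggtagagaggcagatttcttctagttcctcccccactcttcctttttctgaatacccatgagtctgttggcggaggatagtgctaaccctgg
The letters CANNTG occur 4 times in the Cd3g window, 2 times in the Cd3e window and 1 time in the Cd3d window, and 72.3% of 32851 mouse promoter windows of this length hold at least 1. Of the other motifs searched on both strands, the ETS core GGAA occurs 6 times in the Cd3d window, 5 times in the Cd3e window and 2 times in the Cd3g window (96% of windows hold it), an order opposite to that of the E-box. The GATA core AGATAA (11.2%) and the SP1 box GGGCGG (35.7%) occur 1 time each in the Cd3g window, and the RUNX core TGTGGT (16.8%) and TATAAA (13.6%) in none of the 3. A match in these windows is a description of the letters and not of a bound factor.

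The signal of the 3 CD3 chains differed in kind. Cd3g, the gamma chain, had the widest spread of the members, with a lowest value of 2.69, a median of 4.36 and a highest of 5.76 over all mice. Cd3e, the epsilon chain, ran from 3.52 over a median of 4.44 to 5.80, a 4.85-fold range. Both were read above the background of low signals: Cd3e lay above its own array's lower quartile in every mouse and Cd3g in all but 1 (150 mice), which is the lowest, at 2.69. Cd3d, the delta chain, had a lowest value of 1.60, a median of 2.18 and a highest of 3.55, and lay above its array's lower quartile in 1 mouse. The delta chain belongs to the same complex, but its probe set gave a signal that cannot be set apart from the low end of these arrays.

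The other receptors fell into 2 kinds as well. Ptprc, which nearly all white blood cells carry, had a lowest value of 4.98, a median of 5.85 and a highest of 6.96, and was above its array's median in every mouse. Thy1 had 6.73, 7.89 and 8.58 as lowest, median and highest and was also above the array median in every mouse. Il7r, the alpha chain of the IL-7 and TSLP receptors, had 3.92, 4.99 and 5.91, and was above the array median in 110 mice. These 3 were read as clear signals. Cd2, an adhesion receptor of T and NK cells that binds CD48 in the mouse, had 2.15, 2.85 and 3.79 and was above its array's lower quartile in 44 mice (29.1%). Il2rb, the beta chain shared by the IL-2 and IL-15 receptors, had 2.42, 3.04 and 3.84 and was above it in 56 mice (37.1%). Low signal on an array limits what the tests below can show for Cd3d, Cd2 and Il2rb.

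**Figure D1:**
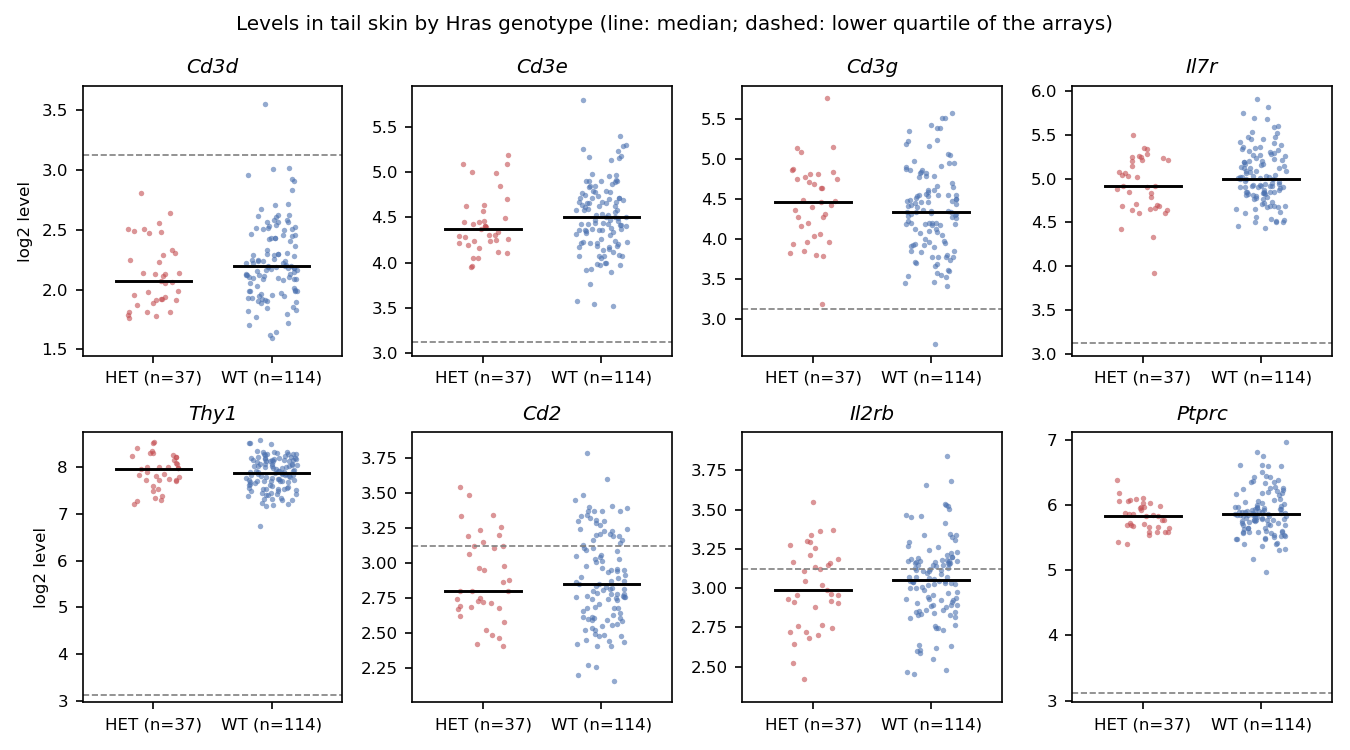
Levels of the 8 measured genes in tail skin, log2 units on the y axis, with HET mice (n = 37) left of WT mice (62 males and 52 females), 1 point per mouse. The black line is the group's median and the dashed line the mean lower quartile of the arrays, 3.12. Nearly all Cd3d points lie under the dashed line, the Cd2 and Il2rb points lie on both sides of it, and the HET and WT points overlap in every panel.

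Most of the spread was not carried by the labels. Genotype, sex and plate together took up 10.2% of the variance of Il7r, 5.2% of that of Cd2, 3.82% for Cd3d, 3.13% for Ptprc, 2.0% for Il2rb, 1.52% for Cd3e, 1.3% for Cd3g and 0.83% for Thy1, beside a median of 2.11% over all genes. After those 3 labels were removed, the SD over mice was 0.53 log2 units for Cd3g, which put it at the 97.4th percentile of all genes, with 486 genes above it. Cd3e had a residual SD of 0.39 and Thy1 of 0.35, with 1439 and 1961 genes above them. Ptprc (0.33), Cd2 (0.32), Cd3d (0.32) and Il7r (0.31) followed, and Il2rb had the smallest value, 0.26, still above the median of all genes, 0.22.

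Between mice labelled HET and WT for Hras, none of the 8 genes passed the test. In this cross the Hras genotype is inherited together with the alleles linked to it, which were not analysed here. A difference by genotype and one by linked alleles therefore cannot be told apart. Differences were fitted with limma (genotype, sex and plate in 1 model) over all 18810 genes, and a gene was called at a Benjamini-Hochberg adjusted p under 0.05. None of 8 was called in HET minus WT, where 0.112% of all genes were called, 21 of 18810. At an unadjusted p under 0.05 there were 1235 genes, among them 1 member, Il7r. A count of 0 in 8 is near that background and is no result about the group.

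For the CD3 chains, Cd3e had 3.95, 4.37 and 5.18 as lowest, median and highest in HET mice, against 3.52, 4.50 and 5.80 in WT mice. Its fitted difference was -0.07 ± 0.07 (SE; limma adjusted p = 0.925). Cd3g had 3.19, 4.47 and 5.76 in HET mice, against 2.69, 4.34 and 5.57 in WT mice, a difference of 0.10 ± 0.10 (SE; limma adjusted p = 0.925). The groups overlapped over almost their whole range for both chains, and the 95% intervals of the HET over WT ratio were 0.863 to 1.05 for Cd3e and 0.931 to 1.23 for Cd3g. Cd3d had 1.77, 2.07 and 2.81 in HET mice and 1.60, 2.19 and 3.55 in WT mice, with a difference of -0.12 ± 0.06 (SE; limma adjusted p = 0.773).

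Among the receptors, Il7r had 3.92, 4.91 and 5.50 in HET mice and 4.44, 4.995 and 5.91 in WT mice. The difference was -0.12 ± 0.06 (SE; unadjusted p = 0.0425, limma adjusted p = 0.74), and the lowest mouse of all, at 3.92, was a HET female. Ptprc had 5.40, 5.84 and 6.38 in HET mice and 4.98, 5.86 and 6.96 in WT mice, so that the WT mice held both ends of its range. Its difference was -0.07 ± 0.06 (SE; limma adjusted p = 0.911). Thy1 had 7.22, 7.96 and 8.53 in HET mice and 6.73, 7.88 and 8.58 in WT mice, with a difference of 0.05 ± 0.07 (SE; limma adjusted p = 0.946). Cd2 (-0.01 ± 0.06) and Il2rb (-0.04 ± 0.05) differed least, relative to their errors, together with Thy1. The median of the 8 differences was -0.06, beside a median of 0.00 over all genes, and 6 of 8 lay below 0. Other lists lay as far below 0 or farther: macrophage and dendritic cell genes had a median of -0.10 (16 of 19 below 0), hair follicle genes -0.10 (10 of 10) and mast cell genes -0.08 (9 of 9). In the 19 lists of cell type and pathway genes, no gene was called in this comparison.

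Il7r was lower in males than in females, and was the only member called in any comparison of labels. It had 4.42, 4.91 and 5.75 as lowest, median and highest in 81 males, against 3.92, 5.13 and 5.91 in 70 females, with means of 4.92 ± 0.29 in males and 5.09 ± 0.33 in females (SD). The 2 distributions overlap widely, with 65.4% of males and 81.4% of females above their own array's median. The fitted male minus female difference was -0.18 ± 0.05 (SE; limma adjusted p = 0.0243), a male over female ratio of 0.884 with a 95% interval of 0.824 to 0.947. This was 1 of 8 members, where 3.62% of all genes were called in either direction and 2.51% were called lower in males, so a count of 1 in 8 is one gene's result and not one of the group. The split of all calls moved with the scaling: 207 genes were higher and 473 lower in males as deposited, 348 higher and 271 lower after each array was centred on its median, and 329 higher and 302 lower after quantile normalization.

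The Il7r call lay close to the threshold. With array medians centred the difference was -0.16 (limma adjusted p = 0.0533), with quantile normalization -0.16 (0.0557), and with the levels of muscle, fat and fibroblast markers as covariates -0.16 (0.0673). By plate, the difference was -0.19 on plate 3, -0.03 on plate 2 and -0.31 on plate 1, below 0 on each but not called on any (limma adjusted p = 0.417, 0.927 and 0.233). Within genotypes, it was 0.00 among HET mice (limma adjusted p = 0.999) and -0.23 among WT mice (0.00644). HET males had a median of 4.88 and HET females 4.91, and WT males had 4.92 and WT females 5.16. The genotype by sex term that compares these differences was 0.22 ± 0.12 (SE; p = 0.0657, limma adjusted p = 0.998), so a difference between the genotypes was not shown. By limma that term called 0 of 18810 genes, with 895 at an unadjusted p under 0.05.

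**Figure D2:**
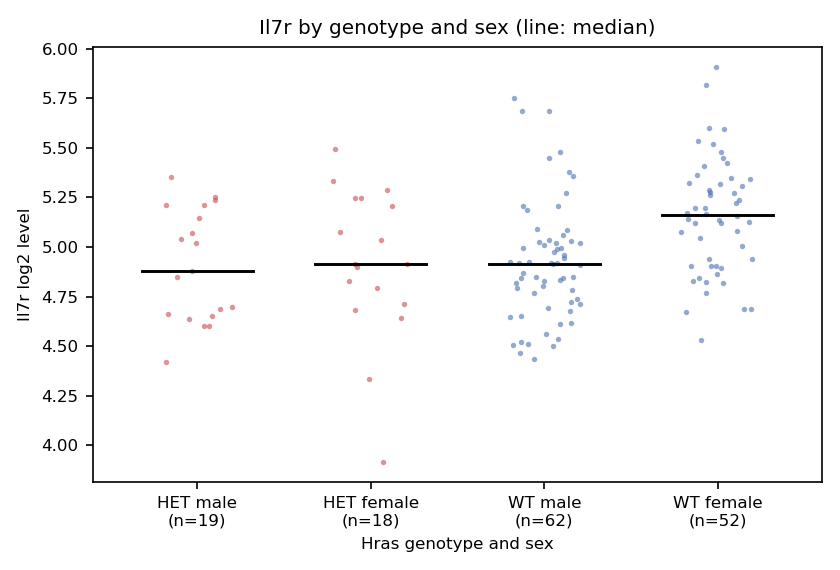
Log2 level of Il7r (y axis) in HET males, HET females, WT males and WT females, 1 point per mouse, with the median as a black line. The medians are 4.88, 4.91, 4.92 and 5.16, so the WT females stand highest, and the points of all 4 groups overlap.

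Some genes of the same receptor's signalling route were also called lower in males. Of 11 measured genes of the common gamma chain list (cytokines, receptors and their signalling partners), 3 were called lower in males and 0 higher, where 2.51% of all genes were called lower. These were Stat5a (-0.23 ± 0.05, SE; limma adjusted p = 0.000273), a transcription factor activated by IL-7, Jak1 (-0.08 ± 0.02, adjusted p = 0.00968), the kinase bound to IL7R, and Socs1 (-0.11 ± 0.03, adjusted p = 0.0169), an inhibitor of Janus kinases. All are expressed in many skin cells besides lymphocytes. In the innate lymphoid cell list 1 of 6 genes was called, Gata3 (-0.14 ± 0.03, adjusted p = 0.0103), a transcription factor that skin epithelium and hair follicles also use. With array medians centred or quantiles normalized, Stat5a and Gata3 were still called and Jak1 (adjusted p = 0.108 and 0.0561) and Socs1 (0.0662 and 0.0584) were not. The median difference of the common gamma chain list was -0.05, beside -0.01 over all genes, and 4 of its 11 genes lay above 0.

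The other 7 members were not called between the sexes. Cd3e differed by 0.00 ± 0.06 and Ptprc by 0.00 ± 0.05 (SE), and the 95% intervals of their male over female ratios were 0.917 to 1.09 and 0.927 to 1.07. Cd3g (-0.04 ± 0.09), Thy1 (-0.04 ± 0.06), Cd3d (0.02 ± 0.05), Il2rb (0.05 ± 0.04) and Cd2 (0.09 ± 0.05) all had a limma adjusted p of at least 0.405. Of 21 measured genes of T cell receptor signalling, 0 were higher and 2 lower in males: Fyn (-0.15 ± 0.04, adjusted p = 0.00581), a Src-family kinase present in many cell types, and Fyb (-0.16 ± 0.05, adjusted p = 0.0427), an adaptor of blood cells. Fyb was not called with array medians centred (adjusted p = 0.0769) or quantiles normalized (0.0745). Csk, of the same list, was called higher in males with both scalings (0.09 and 0.09, limma adjusted p = 0.0297 and 0.0176). As deposited, none of 11 genes of alpha-beta T cell subsets, 17 of epidermal and gamma-delta T cells, 9 of NK cells or 12 pan-leukocyte genes was called. With those scalings Bcl11b, of the alpha-beta list, was called higher in males (0.13 and 0.12, limma adjusted p = 0.0424 and 0.0459). Markers of other cells moved with sex beside Il7r. Of 9 mast cell genes 4 were called lower in males, including Kit (-0.19 ± 0.04, adjusted p = 6.52e-05), and the list's mean level was 6.07 ± 0.33 in males and 6.23 ± 0.32 in females (SD). Of 10 hair follicle genes 4 were called lower, with 10 of 10 below 0, and the mean level was 8.24 ± 0.40 in males and 8.44 ± 0.35 in females. Of 7 adipocyte genes 2 were called lower, with 7 of 7 below 0. Of 11 fibroblast genes 3 were called higher and 1 lower, with 8 of 11 below 0. Of 10 keratinocyte genes 2 were called higher, with 4 of 10 below 0. Of 6 neutrophil genes 5 were above 0 (median 0.20), and 1 was called higher, S100a8 (0.94 ± 0.29, SE; limma adjusted p = 0.0393). S100a8 was not called with muscle, fat and fibroblast markers as covariates (adjusted p = 0.22). Lists with no call included skeletal muscle (10 of 10 below 0), macrophage and dendritic cell (15 of 19) and pan-leukocyte (10 of 12), whose mean level was 5.03 ± 0.21 in males and 5.10 ± 0.17 in females. The part of these cells in the Il7r difference was not tested.

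No member was called between plates, with the moderated F-test, where 0.0213% of all genes were called (4 of 18810, with 152 at an unadjusted p under 0.05). Cd2 came nearest, with an unadjusted p of 0.0567 (limma adjusted p = 1). Its largest contrast was plate 2 minus plate 1, 0.15 ± 0.07 (SE; limma adjusted p = 1.00). Ptprc differed by -0.12 ± 0.07 in the same contrast. For the other 6 genes every plate contrast was between -0.10 and 0.06.

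Over single mice the members did not behave as 1 group. Correlations were computed on residuals after plate, sex and genotype, over all mice, with a two-sided permutation test (100000 draws, smallest possible p 1e-05) and Benjamini-Hochberg adjustment over the 28 pairs. By Pearson's r, 11 were called, all positive, and 6 called pairs reached an r of at least 0.3, which is 21.4% of the pairs, where 1.6% of all 176898645 pairs of genes reached it. The median of the 28 was 0.09, so most pairs were weak. The called pairs tie together Cd3e, Cd3g, Il7r, Ptprc and, at smaller r, Il2rb and Thy1. Cd3d and Cd2 were in none of them. With each other they had 0.08 over all mice, but 0.38 on plate 3 (adjusted p = 0.0199), 0.11 on plate 2 and -0.31 on plate 1 (0.0874).

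The closest pair was Cd3e with Cd3g, with a Pearson r of 0.58 and a Spearman rho of 0.58 (permutation p = 1e-05 and adjusted p = 9.33e-05 for r). Among all 18809 other genes, each was the other's closest. The pair held on every plate, at 0.50 on plate 3, 0.55 on plate 2 and 0.71 on plate 1, and stood at 0.57 with the 2 most extreme mice for Cd3e left out. It was 0.63 among HET mice and 0.57 among WT mice, and 0.59 among males and 0.61 among females, splits that were added after the data were seen. Cd3d, which lies between the pair in gene order, had an r of 0.03 with Cd3e and 0.06 with Cd3g. With the next measured genes on either side, Ube4a and Mpzl2, Cd3g had 0.08 and 0.12, and Cd3e had 0.09 and 0.20. Farther out, Cd3g had -0.28 with Atp5l and -0.24 with Kmt2a, and Cd3e had -0.05 with Mpzl3 and 0.20 with Jaml. The allele each mouse carries at these genes was not analysed here, nor was the effect of spretus sequence on the probes.

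**Figure D3:**
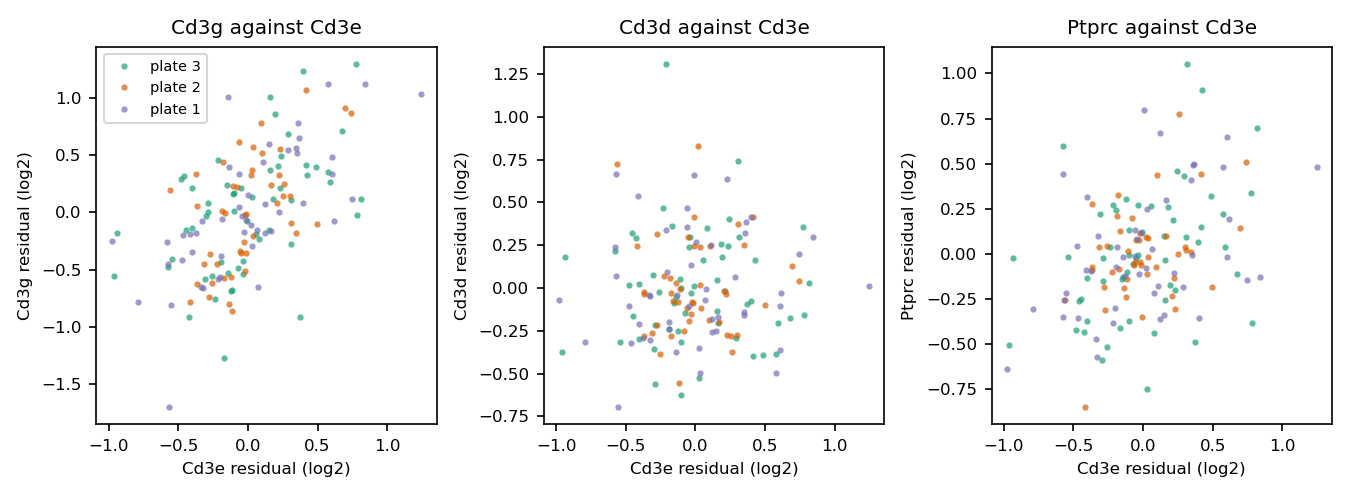
Residual log2 levels after plate, sex and genotype, 1 point per mouse, coloured by plate: Cd3g, Cd3d and Ptprc (y axes) against Cd3e (x axes). The Cd3g points rise along a slope on all 3 plates (r = 0.58 in all), the Ptprc points do so more loosely (r = 0.39), and the Cd3d points form a round cloud (r = 0.03).

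Both chains also went with the leukocyte phosphatase. Cd3e with Ptprc had r = 0.39 (rho 0.36, adjusted p = 9.33e-05; 0.39 on plate 3, 0.45 on plate 2 and 0.45 on plate 1). Cd3g with Ptprc had r = 0.33 (rho 0.32, adjusted p = 0.00028), with 0.21, 0.53 and 0.38 on plates 3, 2 and 1. The correlation of Cd3e with Ptprc was similar on the 3 plates, and that of Cd3g was spread more widely. Il7r with Ptprc reached 0.45 (rho 0.46, adjusted p = 9.33e-05; 0.32, 0.40 and 0.66 on plates 3, 2 and 1). It was the strongest correlation outside the CD3 pair.

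Il7r went with the CD3 chains unevenly over the plates. Cd3g with Il7r had r = 0.36 (rho 0.34, adjusted p = 0.00021), with 0.20 on plate 3, 0.44 on plate 2 and 0.50 on plate 1. Cd3e with Il7r had r = 0.31 (rho 0.28, adjusted p = 0.000373), but 0.10 on plate 3, 0.12 on plate 2 and 0.63 on plate 1, and 0.26 with the 2 most extreme mice for Cd3e left out. The pooled value of that pair rests mainly on plate 1, and it was not called on plates 3 and 2 alone. A test of the difference between plates was not run.

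Il2rb had smaller correlations with the same genes. Its r was 0.30 with Cd3g (rho 0.30, adjusted p = 0.00092), 0.25 with Cd3e (rho 0.23, adjusted p = 0.00647) and 0.24 with Ptprc (rho 0.21, adjusted p = 0.0105; 0.38, 0.01 and 0.19 on plates 3, 2 and 1). On plate 2 it was -0.05 with Cd3g and -0.09 with Cd3e, against 0.43 and 0.33 on plate 3 and 0.36 and 0.34 on plate 1. Il2rb and Il7r, the receptor chains for IL-15 and IL-7, had an r of 0.00. Thy1 had r = 0.23 with Il7r (rho 0.24, adjusted p = 0.0129; 0.17, 0.27 and 0.29 on plates 3, 2 and 1) and 0.19 with Ptprc (rho 0.18, adjusted p = 0.0433; 0.17, 0.08 and 0.31). The Thy1 and Ptprc pair was not called by rho (adjusted p = 0.0626), with array medians centred (0.078) or with no label removed (0.0523), and its r was 0.07 with muscle, fat and fibroblast markers removed (adjusted p = 0.605).

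Thy1 and Cd3g had a negative r of -0.19 (adjusted p = 0.0534), and by rho the pair was called (-0.19, adjusted p = 0.0421). Its r was also called with array medians centred (-0.20, adjusted p = 0.038), with the outlier arrays included (-0.19, 0.0471) and with muscle, fat and fibroblast markers removed (-0.21, 0.0259). By plate it was -0.43 on plate 3 (adjusted p = 0.00989), -0.18 on plate 2 and 0.12 on plate 1. With Cd3e, Thy1 had 0.03.

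With the 2 mice most distant from the median of a pair's first gene left out, 9 of 28 pairs were called. The r was then 0.45 for Il7r with Ptprc, 0.35 for Cd3e with Ptprc, 0.32 for Cd3g with either Il7r or Ptprc, 0.30 for Cd3g with Il2rb, 0.21 for Cd3e with Il2rb and 0.27 for Il7r with Thy1. The 2 pairs that lost their call were Il2rb with Ptprc (0.19, adjusted p = 0.0603) and Thy1 with Ptprc (0.18, adjusted p = 0.0603). By Spearman's rho 11 pairs were called, 10 of them among the 11 by r: Thy1 with Ptprc was not, and the negative pair Cd3g with Thy1 was.

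**Figure D4:**
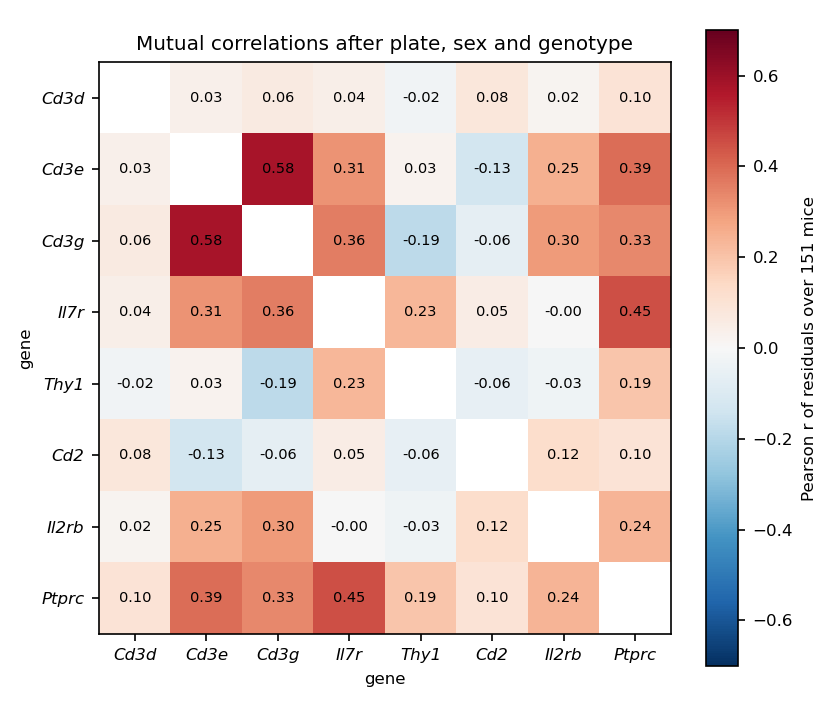
Pearson r of residual log2 levels for all 28 pairs of the 8 measured genes over the same mice, rows and columns named by gene, colour from blue (negative) over white (0) to red (positive). Cd3e, Cd3g, Il7r and Ptprc form the red cells, up to 0.58, while the Cd3d and Cd2 rows are pale, between -0.13 and 0.12.

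The genes outside the group that followed each member most closely show what each probe set was read with. Ranked by r over all mice, Cd3e was followed by Itgae (0.47), the CD103 integrin that holds T cells to epithelium, Acap1 (0.47), Cd74 (0.41), the MHC class II invariant chain, Cd7 (0.41), a lymphocyte surface protein, and Sla (0.40), an adaptor that dampens T cell receptor signals. For Cd3g the closest were Itgae (0.50), Acap1 (0.41), Cd7 (0.40), Cxcr6 (0.39), a chemokine receptor of tissue T cells, and Plppr2 (0.38). Itgae, Acap1 and Cd7 thus stand among the 5 closest of both, and Cd3e and Cd3g are themselves correlated. These r values are descriptions with no test, over mice that share the cross and the plates.

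Il7r was followed by genes of antigen presentation: H2-Aa (0.51), Cd74 (0.48) and H2-Ab1 (0.48), which make MHC class II and its invariant chain, then Dpep2 (0.46) and Cytip (0.45), a regulator of leukocyte adhesion. Ptprc was followed by Lcp1 (0.68), the leukocyte plastin, Srgn (0.65), the granule proteoglycan serglycin, Cd53 (0.64), Hcls1 (0.62) and Ccr2 (0.62), a chemokine receptor of monocytes. In all, 560 genes (2.98% of 18809) had an r of at least 0.3 with Ptprc, 413 (2.2%) with Thy1, 166 (0.883%) with Il7r, 55 (0.292%) with Cd3e and 39 (0.207%) with Cd3g. Il2rb had 6 such genes, led by Coro1a (0.37), an actin regulator of lymphocytes, and then Cxcl5 (0.32), Snx15 (0.32), Gm2a (0.31) and Mmachc (0.31). Cd2 had 3, and its closest were Mir496a (0.32) and Olfr1331 (0.31). Cd3d had none that reached 0.3 unrounded, and its closest gene, Reg3g, had a Pearson r of 0.30 and a Spearman rho of 0.10.

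Over the 8 members as a set, the genes with the highest median r were Cd74 (0.33), Lcp1 (0.33), Cd52 (0.29), a leukocyte surface protein, H2-T23 (0.29), a non-classical MHC gene, Selplg (0.28), the selectin ligand of leukocytes, H2-Aa (0.27), Coro1a (0.27), Itgae (0.26), H2-Ab1 (0.26) and Itgam (0.26). Stap1, Arhgdib, H2-DMa, Sri and Pik3r5 completed the 15, between 0.26 and 0.25. The lowest medians were those of Eif2b3 (-0.23), Trmt61a (-0.21), Hspa14 (-0.21), Adamts20 (-0.21) and Rnf149 (-0.21). Of these, Itgae is the integrin named above, H2-Aa, H2-Ab1, H2-DMa and Cd74 belong to MHC class II presentation, and Itgam is an integrin chain of myeloid cells.

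The genes closest to Thy1 lay on its own chromosome. Its 5 closest genes were Ubash3b (0.59), Gm5617 (0.58), Siae (0.58), Clmp (0.57) and Poglut3 (0.57), all on chromosome 9, at 16 genes before, 66 after, 122 before, 22 before and over 100 after Thy1 in the order of measured genes. Of its 50 closest genes 27 (54%) were on chromosome 9, which holds 5.85% of all measured genes. For Cd3g the count was 13 of 50 (26%), for Cd3d 4, for Cd3e 3 and for Ptprc, on chromosome 1, 3. Genes beyond an r of 0.3 in either direction made up 12% of the 200 genes within 100 places of Thy1, 16.5% of the 400 from there to 300 places, 7.21% of those farther away on the chromosome and 2.81% of genes on other chromosomes. For Cd3g the same shares were 3.0%, 1.25%, 0.20% and 0.21%, and for Cd3e 0.50%, 0.25%, 0.60% and 0.33%. These shares include the members, which the counts of the 50 closest genes leave out. The 0.50% of Cd3e is 1 gene of 200, Cd3g itself, and Cd3e is likewise counted in the 3.0% of Cd3g. The distance classes were set after the values were seen. Among the neighbours of Thy1, Oaf had r = 0.49 and Rnf26 -0.39, so both signs occurred side by side.

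**Figure D5:**
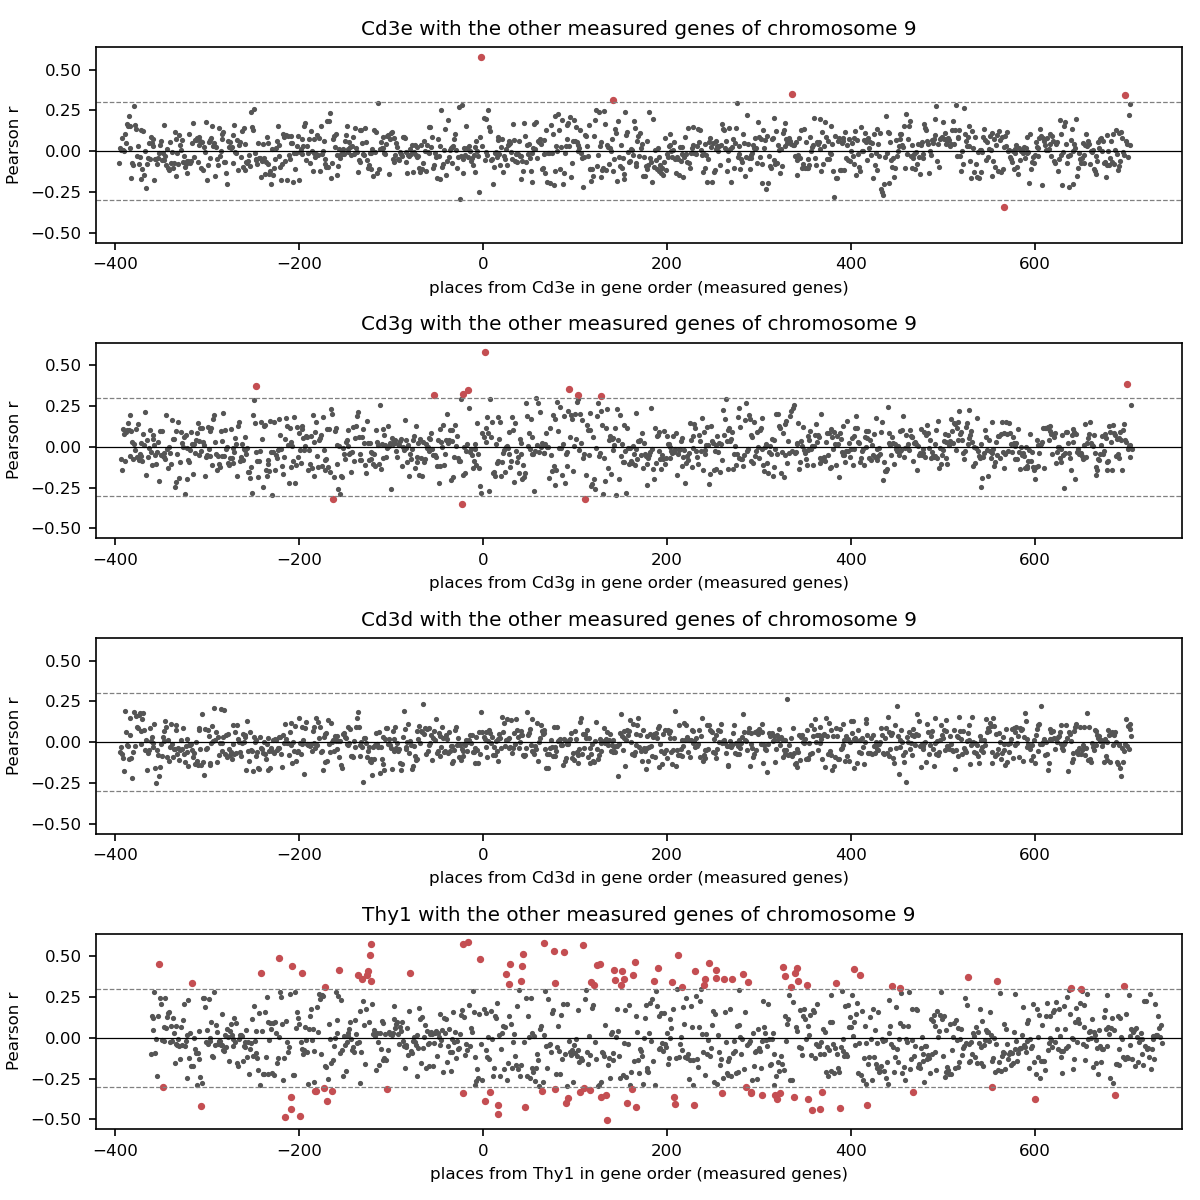
Pearson r of residual log2 levels over all mice (y axis) between each of Cd3e, Cd3g, Cd3d and Thy1 and every other measured gene of chromosome 9, by places in gene order from that gene (x axis). Red points lie beyond 0.3 in either direction (dashed lines). Thy1 has many red points of both signs over most of the chromosome, Cd3g has a few, Cd3e has its highest point at Cd3g 2 places away, and Cd3d has none.

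Each member was also set against lists of marker genes. Each list was scored as the mean of its genes' standardised residuals, and 152 pairs of member and list were tested by permutation with Benjamini-Hochberg adjustment over them. Of these, 36 were called, 4 of them negative, and 19 called pairs had an r of at least 0.3. By Spearman's rho 29 were called, and 30 with the 2 most extreme mice for the list's score left out. No list holds a member. No background share was computed for pairs of other genes with these lists, and that of single gene pairs does not carry over to list scores. Whether these counts are unusual for 8 genes was therefore not shown. Cd3d and Cd2 had no called pair, and no member was called with the NK cell or B cell list.

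The CD3 pair went with the epidermal and gamma-delta T cell list of 17 measured genes: r was 0.36 for Cd3e (adjusted p = 0.000217; 0.20, 0.37 and 0.53 on plates 3, 2 and 1) and 0.30 for Cd3g (adjusted p = 0.00118; 0.22, 0.32 and 0.41). Trdc and Tcrg-C1, the gamma-delta receptor genes written in that list, were not measured, so its score holds no receptor gene of these cells. Single genes of that list had both signs: 12 of 17 were above 0 with Cd3e (from -0.10 to 0.47, median 0.08) and 12 of 17 with Cd3g (from -0.18 to 0.50, median 0.05). Itgae and Cd7 led, Cd69, a marker of resident lymphocytes, had 0.22 with Cd3e and 0.28 with Cd3g, and the lowest were Xcl1, a chemokine of activated lymphocytes (-0.10 and -0.18), and Cd160, a receptor of cytotoxic lymphocytes (-0.07 and -0.12). Against T cell receptor signalling, Cd3e had 0.31 (adjusted p = 0.00144) and Cd3g 0.21 (adjusted p = 0.045). Among its 21 genes, 17 were above 0 with Cd3e (from -0.02 to 0.27, median 0.04) and 14 with Cd3g (from -0.07 to 0.20, median 0.06). Skap1, an adaptor of T cells, had 0.27 with Cd3e and 0.20 with Cd3g, Icos, a co-stimulatory receptor, had 0.18 and 0.11, and Lat, the scaffold of the receptor's signals, had 0.08 and 0.20. Cd247, the CD3 zeta chain, had 0.08 with Cd3e and 0.07 with Cd3g, and Zap70, the kinase that docks on the phosphorylated chains, had 0.00 and -0.05. Of the co-receptors, Cd4 had 0.25 with Cd3e and 0.13 with Cd3g, and Cd8a had 0.00 and 0.05. Of 11 alpha-beta T cell subset genes, 8 were above 0 with Cd3e (from -0.18 to 0.25, median 0.02) and 6 with Cd3g (from -0.20 to 0.13, median 0.00). The mean levels of Cd247 (3.26), Cd8a (3.24) and Cd69 (3.16) were close to the arrays' lower quartiles, and that of Cd160 (2.24) lay below them. At such levels a correlation of either sign, or none, has little signal to rest on.

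The pan-leukocyte list was the one most members shared. Its r was 0.70 with Ptprc (0.68, 0.68 and 0.74 on plates 3, 2 and 1), 0.46 with Il7r (0.24, 0.63 and 0.65), 0.40 with Cd3e (0.36, 0.24 and 0.60), 0.37 with Thy1 (0.34, 0.35 and 0.40), 0.29 with Cd3g (0.08, 0.37 and 0.51) and 0.26 with Il2rb (0.33, 0.03 and 0.36). Macrophage and dendritic cell genes had 0.60 with Ptprc, 0.39 with Thy1, 0.29 with Il7r and 0.22 with Cd3e. Neutrophil genes had 0.55 with Ptprc, and mast cell genes had 0.40 with Ptprc and 0.26 with Il7r. Thy1 alone of the members was called with the adipocyte list (0.28), and Thy1 and Ptprc were called with fibroblast genes (0.37 and 0.34) and endothelial genes (0.36 and 0.35). With muscle, fat and fibroblast markers removed as well, Thy1 kept 0.24 with the pan-leukocyte list and 0.15 with macrophage genes, while Ptprc kept 0.67 and 0.55. Il7r, Thy1 and Ptprc were each negative against hair follicle genes (-0.27, -0.25 and -0.27). All 10 skeletal muscle genes had an r below 0 with Cd3g (median -0.19), Cd3e (-0.10) and Il7r (-0.07). With Thy1 (median 0.20), Ptprc (0.09) and Cd2 (0.04) all 10 were above 0. These medians over single genes are descriptions with no test.

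The cytokines that the receptor chains read gave smaller values. Il7 had r = 0.20 with Il7r, Il15 had 0.25 with Il7r and -0.11 with Il2rb, and Tslp had 0.19 with Il7r. Tslp had higher values with Ptprc (0.29), Il2rb (0.28) and Cd3e (0.25), and negative ones with Cd3d (-0.08) and Cd2 (-0.11). Its mean level, 2.605, lay below the arrays' lower quartiles, so its correlations have little signal to rest on. Jak1, which binds both receptor chains, had 0.34 with Il7r and 0.05 with Il2rb. Stat5a had 0.11 and Socs1 -0.05 with Il7r. Cd48, the ligand of CD2 in the mouse, had -0.04 with Cd2 and 0.33 with Ptprc. The common gamma chain list as a whole was called with Il7r (0.33, adjusted p = 0.000304; 0.18, 0.41 and 0.50 on plates 3, 2 and 1) and with no other member.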

How the data were processed

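Values were the deposited log2 levels per probe set, made by the authors with RMA per the submitters' processing notes, which corrects background, normalizes between arrays and summarises probes. Neither the RMA version nor the array's genome build is stated there. The deposited table had 35556 probe sets, 171 of them without values, and 21201 had 1 gene symbol, 1881 several and 12303 none. Symbols were matched by gene identifier to a RefSeq table (GRCm38.p6) for 21168 probe sets, and the probe set of highest mean stood for its gene, which gave 18810 genes. Of 153 arrays, 2 labelled as outliers (WT males on plate 2) were left out. No label says whether mice share a litter, so p-values measure the spread between these mice.

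The limma package (version 3.58.1, R 4.3.3; lmFit, then eBayes with trend) was fitted with genotype, sex and plate, and, in a second model, their genotype by sex term. Adjusted p-values are Benjamini-Hochberg over 18810 genes. The script was tested on simulated data. Residual correlations, permutation tests and figures used Python (3.11.15), with pandas (2.3.3), numpy (2.4.6), matplotlib (3.10.9) and scipy (1.17.1). The design counted 36 pairs of 9 genes; with Lck not analysed here there were 28. Promoter windows are from RefSeq, which matched Cd3d, Cd3e, Cd3g, Il7r and Ptprc among the measured members.

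Genes named are the members, up to 3 called genes of each list, the 5 closest genes of each member, the 15 highest and 5 lowest by median r over the members, and the 3 measured genes on each side of a member. Single genes of the lists given with their r to a member were chosen after their values were seen. The members and the 19 lists (219 genes written, 201 measured) were chosen with earlier results of these data known. Alternatives were other scalings, marker covariates, single plates, sexes and genotypes, the outlier arrays, all probe sets averaged, a filter on low genes, robust eBayes and no plate term.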

Additional observations from a re-analysis of the deposited data

How the results depend on the processing

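In HET minus WT 0.112% of genes were called, against 0% on plate 1 alone (limma; 887 genes at an unadjusted p under 0.05), 0.0957% on plate 2 alone, 0% on plate 3 alone (1809), 0% in males alone (962) and 0.0532% in females alone. In male minus female 3.62% were called, against 0.276%, 0.383% and 0.611% on plates 1, 2 and 3 alone and 0.138% in HET mice alone. The 1 member called there, Il7r, was not called (0 of 8) with array medians centred, with quantile normalization, with marker covariates, on any plate alone or in HET mice alone, where its difference changed sign to 0.0017. The plate test called 0.0425% of genes in females alone, against 0.0213%. The 11 called pairs of members became 7 on plate 1, 5 on plate 2, 7 on plate 3 (among them 2 not called over all mice, Cd3d with Cd2 at 0.38 and Cd3g with Thy1 at -0.43), and, in splits added after the data were seen, 3 in HET mice, 6 in males and 7 in females. Those with r of at least 0.3 became 3 in HET mice, against 6. The 36 called pairs of member and list became 23, 11 and 5 on plates 1, 2 and 3, 4 in HET mice, 20 in males and 19 in females. Those with r of at least 0.3, 19 in all, became 11 on plate 2, 5 on plate 3, 10 with marker covariates removed and 3 in HET mice. Signs turned for Cd3e with Il2rb (-0.0857) and Cd3g with Il2rb (-0.0453) on plate 2, Thy1 with Ptprc (-0.0534) and Il2rb with Ptprc (-0.0379) in HET mice, Cd3e with the neutrophil list on plate 2 (-0.18), and Il2rb with the adhesion partners (-0.189) and pan-leukocyte (-0.0429) lists in HET mice. The cause was not tested. Of single differences, 414 kept direction and side of the threshold, 6 lost their call, 65 uncalled ones changed sign and 1 called one did. Of member pairs 281 kept both, 34 lost a call, 5 gained one, 40 uncalled ones changed sign and 4 called ones did, and of member and list pairs the numbers were 1477, 165, 23, 284 and 3. Averaging probe sets cannot change a member, which has 1 each. Low signal limits what can be seen for Cd3d, Cd2 and Il2rb. No paired analysis was possible because the labels give the groups no shared replicate numbers.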

Other observations

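The 2 arrays labelled as outliers, both of WT males on plate 2, enter no comparison above. Cd3e was 4.12 and 5.30 on them, Cd3g 3.63 and 4.93, Cd3d 2.57 and 2.72, Ptprc 5.38 and 5.48, Il7r 4.84 and 4.88, Thy1 7.70 and 7.84, Cd2 2.65 and 2.84 and Il2rb 2.80 and 3.35 (the lower and the higher value for each gene). All of these lie within the range of the other mice.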
